A study of Mus musculus with 12 samples.

Results

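The genes described here are 40 enzymes and transporters of central carbon metabolism, chosen by symbol from a list of glycolytic, pentose phosphate, pyruvate dehydrogenase and tricarboxylic acid (TCA) cycle genes, out of 24535 gene symbols in the deposited tables. They fall into 5 classes: 14 glycolytic enzymes, 5 genes of glucose and lactate transport and lactate dehydrogenase, 4 enzymes of the pentose phosphate pathway, 5 genes that bring pyruvate into mitochondria-linked metabolism, and 12 TCA cycle enzymes. All 40 symbols were found, and 39 had values, because Eno1 (enolase) was listed at 0 in both tables. RNA had been sequenced from 12 libraries of C57BL/6 mouse bone marrow in 4 groups of 3: LSK libraries labelled KO (genotype U2af1KO), LSK libraries labelled WT, LinNeg libraries labelled KO (U2af1KO) and LinNeg libraries labelled WT. U2af1 encodes the small subunit of a splicing factor that recognises the end of introns. LinNeg denotes marrow depleted of cells with mature lineage antigens, and LSK denotes the Sca-1 and c-Kit positive fraction of such cells, which holds the stem cells. All cells were depleted on magnetic columns and flow-sorted, and total RNA freed of ribosomal RNA was sequenced. The source name of the LSK libraries adds BMT, an abbreviation left unexplained there. Age, the driver of the deletion and the number of animals per library are not given in the labels, and separate animals are not stated for the libraries of a group. The p-values may therefore cover technical spread only.

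Glycolysis splits glucose into pyruvate in the cytosol, the pentose phosphate pathway diverts glucose 6-phosphate into NADPH and ribose, and the pyruvate dehydrogenase complex passes pyruvate on to the TCA cycle as acetyl-CoA. Several steps are served by isozymes that differ between tissues. In marrow, stem cells are known for a reliance on glycolysis, dividing progenitors for greater mitochondrial activity, and maturing red cells for their own forms of pyruvate kinase and hexokinase. The comparisons below ask how the transcripts of these steps differed between KO and WT labels in each population, and whether the 2 populations differed in that effect.

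The files hold the authors' own comparisons, KO over WT, and no value per library, so the depth of each library is unknown. Each level below is a mean of normalised counts per genotype label, derived from the deposited overall mean and fold change with 3 libraries taken on each side. Fold changes are on the log2 scale, SE is the standard error in the authors' deposited table, and a gene is called where the authors' own DESeq2 run gave it an adjusted p below 0.05. In these bulk samples, fewer cells of a type and less RNA per cell cannot be told apart.

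The targeted gene was not lower in the libraries labelled KO. U2af1 had a derived mean of 4054 in LSK libraries labelled KO and 2649.7 in those labelled WT, and 3205 in LinNeg libraries labelled KO against 2037 in those labelled WT. A count over the whole gene does not check a deletion of part of it, so every direction here rests on the names of the deposited comparisons. Sex-linked transcripts also moved with the label. Xist, which is transcribed from the inactive X chromosome of females, had a log2 fold change of 7.49 in LSK and 10.02 in LinNeg in the authors' deposited tables. Y-linked Ddx3y stood at 4.99 in LSK libraries labelled KO and 2949 in those labelled WT, so sex and genotype label cannot be told apart in LSK. In LinNeg, Ddx3y stood at 1255 with the KO label and 2165 with the WT label and was not called. In LSK libraries Kit and Ly6a, which encode the antigens the LSK gate uses, had derived means of 14587 and 335 with the KO label and 28724 and 593 with the WT label.

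In LSK, most carbon metabolism genes were higher with the KO label, whereas in LinNeg the direction differed by step. In LSK, 30 of the 39 measured genes were called higher and 4 lower. In LinNeg, 15 were called higher and 11 lower. Among all genes tested, 32.4% were called higher and 29.2% lower in LSK, and 22.1% higher and 19.3% lower in LinNeg. All 39 genes had overall means above 100 normalised counts, and among genes at such means the shares were 40.8% higher and 36.4% lower in LSK and 24.9% higher and 26.8% lower in LinNeg. The median log2 fold change of the 39 genes was 0.58 in LSK, where all genes tested had a median of 0.042, and 0.14 in LinNeg, where all genes tested had a median of 0.16 and genes with a mean of at least 100 one of -0.018. Subtracting the LinNeg median of all genes turned the split of all LinNeg calls from 53.3% higher into 42.4% higher. With that shift the calls of Tpi1, Pdhb and Dld were lost in LinNeg, and Aldoa and Idh3g were called lower. Subtracting the median of genes with a mean of at least 100 instead left the LinNeg sign and call of all 39 genes unchanged. The 39 genes were measured more tightly in LSK, with a median SE of 0.061, than in LinNeg, with a median SE of 0.18, so a gene not called in LinNeg is not shown to be unchanged.

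**Figure D1:**
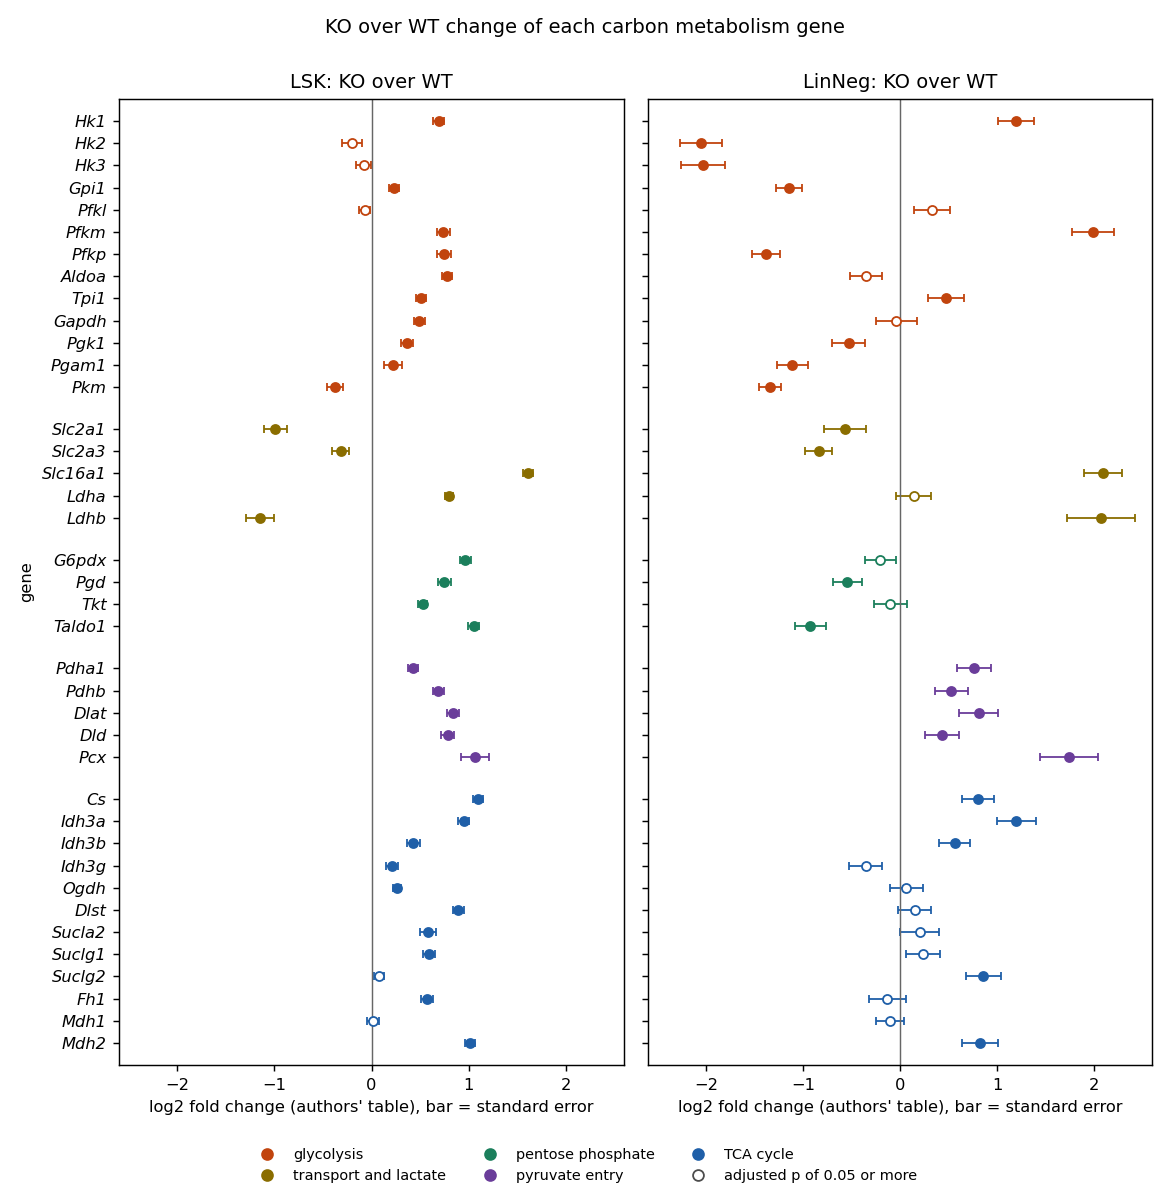
Log2 fold change, KO over WT, of the 39 measured genes in LSK (left) and LinNeg (right), with the standard error from the authors' deposited tables as bars; filled points have an adjusted p under 0.05 and open points do not. In LSK 30 filled points lie above 0 and 4 below, and in LinNeg 15 lie above 0 and 11 below.

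Promoters are shown for 6 genes whose isozymes or partners moved apart: the hexokinases Hk1 and Hk2, the phosphofructokinases Pfkm and Pfkp, the lactate dehydrogenase Ldha and the lactate transporter Slc16a1. Each run is the 250 bases before a transcription start in RefSeq (build GRCm38.p6), read 5′ to 3′ on the gene's strand, and for genes with several starts the window with the most G and C is printed. Capitals mark, on either strand, ACGTG, 1 form of the core that hypoxia-inducible factors bind, and a sequence bound by GATA factors (AGATAA). The other form of that core, GCGTG, was not searched. The E-box, spelled CACGTG, contains ACGTG on both strands and counts 1 time on each. The windows are chr10:62340422-62340671 for Hk1 and chr6:82774455-82774704 for Hk2, both on the minus strand, chr15:98108306-98108555 on the plus strand for Pfkm, chr13:6648772-6649021 on the minus strand for Pfkp, and chr7:46845554-46845803 for Ldha and chr3:104638414-104638663 for Slc16a1 on the plus strand.
Hk1: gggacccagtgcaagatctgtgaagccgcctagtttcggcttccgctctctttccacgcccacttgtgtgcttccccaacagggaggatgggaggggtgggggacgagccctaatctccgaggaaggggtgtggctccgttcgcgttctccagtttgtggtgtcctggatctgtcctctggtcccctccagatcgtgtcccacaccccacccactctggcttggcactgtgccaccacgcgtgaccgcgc
Hk2: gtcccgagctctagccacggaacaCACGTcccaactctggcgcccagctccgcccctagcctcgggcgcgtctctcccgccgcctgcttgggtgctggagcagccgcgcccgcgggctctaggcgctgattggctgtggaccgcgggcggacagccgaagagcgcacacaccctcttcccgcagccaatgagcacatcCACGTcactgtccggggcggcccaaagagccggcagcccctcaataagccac
Pfkm: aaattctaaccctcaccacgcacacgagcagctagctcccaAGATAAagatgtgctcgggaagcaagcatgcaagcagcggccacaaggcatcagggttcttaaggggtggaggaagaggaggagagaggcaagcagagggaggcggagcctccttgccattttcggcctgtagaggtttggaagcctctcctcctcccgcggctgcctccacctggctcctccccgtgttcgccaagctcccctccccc
Pfkp: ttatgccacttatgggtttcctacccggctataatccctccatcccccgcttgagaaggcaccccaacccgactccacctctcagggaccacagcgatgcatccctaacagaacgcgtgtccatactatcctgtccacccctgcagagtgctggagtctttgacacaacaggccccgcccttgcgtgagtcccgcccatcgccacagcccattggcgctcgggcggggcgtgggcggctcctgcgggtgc
Ldha: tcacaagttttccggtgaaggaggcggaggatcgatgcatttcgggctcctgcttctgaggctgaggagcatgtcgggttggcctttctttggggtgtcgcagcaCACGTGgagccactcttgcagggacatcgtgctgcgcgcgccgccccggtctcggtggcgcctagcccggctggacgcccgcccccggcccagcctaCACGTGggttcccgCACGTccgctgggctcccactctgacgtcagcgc
Slc16a1: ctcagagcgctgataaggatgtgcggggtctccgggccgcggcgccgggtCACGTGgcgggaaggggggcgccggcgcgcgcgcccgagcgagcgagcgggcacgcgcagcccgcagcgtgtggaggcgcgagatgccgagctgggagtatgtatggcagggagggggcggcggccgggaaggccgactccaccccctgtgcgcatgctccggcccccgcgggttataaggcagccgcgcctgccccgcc

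The printed Hk2 window held 2 matches of ACGTG over both strands and the Ldha window 5, while the Hk1 and Pfkp windows held 0 of either motif. ACGTG stood in at least 1 window of 15 of the 38 genes matched in RefSeq, which is 39.5%, against 18.5% of all genes with promoters and 23.9% of genes tested in both tables. By class it was found in 7 of 14 glycolytic genes, 3 of 4 transport and lactate genes, 0 of 4 pentose phosphate genes, 2 of 5 pyruvate entry genes and 3 of 11 TCA cycle genes. AGATAA stood in 2 of the 38 genes, or 5.26%, against 11.4% of all genes with promoters and 7.54% of genes tested in both tables. Such matches describe letters in these windows and were not tested for binding.

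Of the hexokinases, Hk1 alone was called in LSK, and the isozymes were called in opposite directions in LinNeg. Hexokinases trap glucose in the cell as glucose 6-phosphate. Hk1 (chr10:62268855-62379908, mm10), the widespread isozyme, had a derived mean of 19523 in LSK libraries labelled KO and 12069 in those labelled WT, a log2 fold change of 0.69 (SE 0.055, adjusted p = 6.32e-35) in the authors' deposited table. Hk2 (chr6:82725025-82774454), an inducible isozyme, and Hk3 (chr13:55005985-55021385), an isozyme found mainly in white blood cells, were not called in LSK, where that table gave -0.20 (95% interval -0.40 to -0.0063) and -0.081 (95% interval -0.24 to 0.075). In LinNeg, Hk1 was again higher, with 15439 in libraries labelled KO against 6754 in those labelled WT and 1.19 (SE 0.19, adjusted p = 2.39e-09) in the authors' deposited table. Hk2 had 2176 with the KO label and 9019.7 with the WT label in LinNeg, and the authors' deposited table gave -2.05 (SE 0.22, adjusted p = 7.47e-20). Hk3 had 2745 with the KO label and 11218 with the WT label there, at -2.03 (SE 0.23, adjusted p = 1.55e-17) in the authors' deposited table. Hk1 was thus higher and both other isozymes were lower in LinNeg.

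Phosphofructokinase, the committed step of glycolysis, showed a similar contrast between its subunits in LinNeg. In LSK the muscle-type subunit Pfkm (chr15:98092589-98132451) and the platelet-type subunit Pfkp (chr13:6579768-6648777) were both higher. Pfkp had 2373 normalised counts in LSK libraries labelled KO and 1411 in those labelled WT, at 0.75 (SE 0.072, adjusted p = 7.55e-25) in the authors' deposited table, and Pfkm had 4582 with the KO label and 2743 with the WT label, at 0.74 (SE 0.068, adjusted p = 1.66e-26). Within LinNeg Pfkm had 4209.9 in libraries labelled KO and 1061 in those labelled WT, a log2 fold change of 1.99 (SE 0.22, adjusted p = 2.51e-18) in the authors' deposited table. Pfkp had 2758 with the KO label and 7164 with the WT label in LinNeg, and the authors' deposited table gave -1.38 (SE 0.14, adjusted p = 2.84e-20). Pfkp was therefore called in opposite directions in the 2 populations. The liver-type subunit Pfkl was not called in either population, at -0.071 (SE 0.061) in LSK and 0.33 (SE 0.19) in LinNeg in the authors' deposited tables.

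Gpi1, glucose 6-phosphate isomerase, which stands between these steps, was also called in opposite directions. It had 20177 in LSK libraries labelled KO and 17215 in those labelled WT, at 0.23 (SE 0.051, adjusted p = 1.49e-05) in the authors' deposited table. Within LinNeg it had 10464 with the KO label and 23136 with the WT label, at -1.14 (SE 0.13, adjusted p = 5.01e-16).

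The later enzymes, from aldolase to pyruvate kinase, were mostly higher in LSK and mixed in LinNeg. In LSK the authors' deposited table gave Aldoa (aldolase) 0.78 (SE 0.051, adjusted p = 1.86e-50), and it called Tpi1 (triose phosphate isomerase), Gapdh (glyceraldehyde 3-phosphate dehydrogenase), Pgk1 (phosphoglycerate kinase) and Pgam1 (phosphoglycerate mutase) higher, at 0.51, 0.49, 0.37 and 0.22. Aldoa stood at 15949 normalised counts in LSK libraries labelled KO and 9314 in those labelled WT. In LinNeg the authors' deposited table gave Tpi1 0.47 (SE 0.18, adjusted p = 0.0277), the only gene of this stretch called higher there. Pgk1 had 4185 in LinNeg libraries labelled KO and 6045 in those labelled WT, at -0.53 (SE 0.17, adjusted p = 0.0052) in the authors' deposited table. Pgam1 had 1991 with the KO label and 4294 with the WT label in LinNeg, at -1.11 (SE 0.16, adjusted p = 2.96e-11). Pgk1 and Pgam1 were thus higher in LSK and lower in LinNeg, although the LSK call of Pgam1 was lost after subtracting the median of all genes (adjusted p = 0.0846). Aldoa and Gapdh were not called in LinNeg, at -0.35 (SE 0.16) and -0.039 (SE 0.21) in the authors' deposited table. Gapdh has 73 other annotated transcribed loci that match it at 95% identity or more over at least 500 bases, 69 of them pseudogenes, so its value is uncertain. Pgk1 has 2 such copies, and Gpi1, Pfkp, Pgam1 and Pkm have 1 each, as do Pdhb and Suclg2 outside this class. Eno1, listed at 0, has 3 such copies, 2 of them pseudogenes, and the reason for its 0 was not tested.

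Pkm (chr9:59656368-59679375), the pyruvate kinase gene of most tissues, was lower in both populations. It had 17900.0 in LSK libraries labelled KO and 23283 in those labelled WT, with -0.38 (SE 0.082, adjusted p = 9.44e-06) in the authors' deposited table, and 8040.2 in LinNeg libraries labelled KO against 20350.2 in those labelled WT, with -1.34 (SE 0.12, adjusted p = 2.58e-28). Over the glycolytic class, 9 of 13 measured genes were called higher and 1 lower in LSK, with a median of 0.37. In LinNeg 3 were called higher and 7 lower, with a median of -0.53.

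The glucose transporters Slc2a1 (GLUT1) and Slc2a3 (GLUT3) were lower in both populations. Slc2a1 had 489 in LSK libraries labelled KO and 971 in those labelled WT, at -0.99 (SE 0.12, adjusted p = 5.52e-17) in the authors' deposited table, and 629 with the KO label and 929 with the WT label in LinNeg, at -0.56 (SE 0.22, adjusted p = 0.0257). Slc2a3 was at -0.32 (SE 0.083, adjusted p = 0.00025) in LSK and -0.84 (SE 0.14, adjusted p = 8.27e-09) in LinNeg in the authors' deposited tables. Slc16a1, the lactate and pyruvate transporter MCT1, had the largest positive log2 fold change of the 39 genes in each table. It had 10744 in LSK libraries labelled KO and 3512 in those labelled WT, at 1.61 (SE 0.056, adjusted p = 1.79e-182) in the authors' deposited table. Within LinNeg it had 6499 with the KO label and 1525 with the WT label, at 2.09 (SE 0.20, adjusted p = 9.20e-25).

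The lactate dehydrogenase subunits differed between the populations. Ldhb (chr6:142490249-142507957), the subunit that favours lactate oxidation, had 219 in LSK libraries labelled KO and 485 in those labelled WT, at -1.15 (SE 0.15, adjusted p = 2.71e-14) in the authors' deposited table. Within LinNeg Ldhb had 406 with the KO label and 96.4 with the WT label, at 2.07 (SE 0.35, adjusted p = 2.91e-08), so it was lower in LSK and higher in LinNeg, the only gene of the 39 called in that pattern. Ldha, the main subunit of glycolytic cells, had 21464 in LSK libraries labelled KO and 12310.5 in those labelled WT, at 0.80 (SE 0.041, adjusted p = 1.03e-83) in the authors' deposited table. Within LinNeg Ldha was not called, at 0.14 (SE 0.18) in the authors' deposited table and at -0.016 after subtracting the median of all genes. Ldha has 2 near copies and Ldhb 1 among annotated transcripts. In this class of 5, 2 were called higher and 3 lower in LSK, and 2 higher and 2 lower in LinNeg.

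The pentose phosphate enzymes were higher in LSK, and Pgd and Taldo1 were lower in LinNeg. All 4 were called higher in LSK, with a median of 0.86, and 2 of the 4 were called lower and 0 higher in LinNeg, with a median of -0.37. Taldo1 (chr7:141392199-141402968), transaldolase of the non-oxidative branch, had 8792 in LSK libraries labelled KO and 4235 in those labelled WT, at 1.05 (SE 0.055, adjusted p = 6.77e-79) in the authors' deposited table. Within LinNeg it had 6333 with the KO label and 12010.2 with the WT label, at -0.92 (SE 0.16, adjusted p = 5.91e-08). Pgd, the second NADPH-forming dehydrogenase of the oxidative branch, had 5895 in LSK libraries labelled KO and 3504 in those labelled WT, at 0.75 (SE 0.066, adjusted p = 3.13e-29) in the authors' deposited table, and 3854 with the KO label and 5620.0 with the WT label in LinNeg, at -0.54 (SE 0.15, adjusted p = 0.000943). G6pdx, the rate-limiting glucose 6-phosphate dehydrogenase, had 5053 in LSK libraries labelled KO and 2587 in those labelled WT, at 0.97 (SE 0.055, adjusted p = 1.57e-68) in the authors' deposited table. Tkt, transketolase, had 22848 with the KO label and 15844 with the WT label in LSK, at 0.53 (SE 0.045, adjusted p = 1.85e-31). Neither G6pdx nor Tkt was called in LinNeg, at -0.21 (SE 0.16) and -0.10 (SE 0.17) in the authors' deposited table.

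Pyruvate entry was the class in which all measured genes were called higher in both populations. Its 5 genes had a median of 0.78 in LSK and 0.76 in LinNeg. The 4 genes of the pyruvate dehydrogenase complex ranged from 0.43 (Pdha1) to 0.84 (Dlat) in LSK and from 0.43 (Dld) to 0.81 (Dlat) in LinNeg in the authors' deposited tables. Dlat, the acetyltransferase core, had 4088 in LSK libraries labelled KO and 2289 in those labelled WT, at 0.84 (SE 0.063, adjusted p = 1.12e-38) in the authors' deposited table, and 2755 with the KO label and 1572 with the WT label in LinNeg, at 0.81 (SE 0.20, adjusted p = 0.000287). Pdha1, a catalytic subunit of the first enzyme, was at 0.43 (SE 0.049, adjusted p = 1.37e-17) in LSK and 0.76 (SE 0.17, adjusted p = 5.79e-05) in LinNeg. Its partner Pdhb was at 0.69 (SE 0.057, adjusted p = 1.53e-32) in LSK and 0.53 (SE 0.17, adjusted p = 0.00699) in LinNeg. Dld, the shared dihydrolipoamide dehydrogenase, was at 0.78 (SE 0.064, adjusted p = 1.25e-33) in LSK and 0.43 (SE 0.18, adjusted p = 0.0344) in LinNeg. The LinNeg calls of Pdhb and Dld were lost after subtracting the median of all genes (adjusted p = 0.0682 for Pdhb and 0.2 for Dld), which left 3 of 5 called there. Both calls stayed after subtracting the median of genes with a mean of at least 100. Pcx, pyruvate carboxylase, which replenishes oxaloacetate, had 505 in LSK libraries labelled KO and 241 in those labelled WT, at 1.07 (SE 0.14, adjusted p = 6.60e-13) in the authors' deposited table. Within LinNeg Pcx had 623 with the KO label and 187 with the WT label, at 1.74 (SE 0.30, adjusted p = 5.03e-08).

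No TCA cycle gene was called lower in either population, although Idh3g was called lower in LinNeg after subtracting the median of all genes (adjusted p = 0.00894). In LSK 10 of 12 were called higher, with a median of 0.58, and in LinNeg 5 were called higher, with a median of 0.22. Cs, citrate synthase, the entry step, had 14662 in LSK libraries labelled KO and 6859 in those labelled WT, at 1.10 (SE 0.049, adjusted p = 4.23e-107) in the authors' deposited table, and 12077 with the KO label and 6919 with the WT label in LinNeg, at 0.80 (SE 0.16, adjusted p = 7.41e-06). The mitochondrial malate dehydrogenase Mdh2 had 10234 in LSK libraries labelled KO and 5062 in those labelled WT, at 1.02 (SE 0.053, adjusted p = 3.50e-81) in the authors' deposited table. Within LinNeg Mdh2 was at 0.82 (SE 0.19, adjusted p = 7.20e-05). Its cytosolic counterpart Mdh1 was not called in either, with 95% intervals of -0.11 to 0.13 in LSK and -0.38 to 0.18 in LinNeg. Mdh1 and Mdh2 catalyse the same reaction in different compartments.

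The subunits of the NAD-dependent isocitrate dehydrogenase differed in their LinNeg calls. In LSK the catalytic Idh3a, the regulatory Idh3b and the X-linked regulatory Idh3g were all called higher, at 0.95, 0.43 and 0.21 in the authors' deposited table. Idh3a had 4131 in LinNeg libraries labelled KO and 1799.7 in those labelled WT, at 1.20 (SE 0.20, adjusted p = 3.83e-08) in the authors' deposited table, while Idh3b was at 0.56 (SE 0.16, adjusted p = 0.00157) and Idh3g at -0.35 (SE 0.17, adjusted p = 0.084) there. Dlst, the succinyltransferase core of the 2-oxoglutarate dehydrogenase complex, had 9503 in LSK libraries labelled KO and 5106 in those labelled WT, at 0.90 (SE 0.054, adjusted p = 7.77e-60). Ogdh, the first enzyme of that complex, was at 0.26 (SE 0.044, adjusted p = 7.84e-09) in LSK in the authors' deposited table. Within LinNeg Ogdh and Dlst were not called, at 0.063 (SE 0.17) and 0.15 (SE 0.17), and both signs turned after subtracting the median of all genes. Succinate-CoA ligase has an ATP-forming beta subunit, Sucla2, and a GTP-forming one, Suclg2. Suclg2 was not called in LSK, at 0.078 (95% interval -0.03 to 0.19), and had 1975 in LinNeg libraries labelled KO and 1089 in those labelled WT, at 0.86 (SE 0.18, adjusted p = 1.79e-05) in the authors' deposited table. Sucla2, the alpha subunit Suclg1 and fumarase (Fh1) were called higher in LSK, at 0.58, 0.59 and 0.58, and were not called in LinNeg, at 0.20, 0.23 and -0.13.

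The effect of the label differed between the LSK and LinNeg comparisons for 22 of the 39 genes. These comparisons also differ in the BMT tag of the LSK libraries and in how sex goes with the label. Population cannot be told apart from either in these differences. The difference, the LSK log2 fold change minus the LinNeg one, was tested per gene over 15735 genes with a two-sided normal test and Benjamini-Hochberg adjustment, and the 2 comparisons share no library. The KO effect was higher in LSK for 18 genes and lower in LSK for 4, against 17.4% and 14.5% of all genes tested. By class it was called for 11 of 13 glycolytic genes (9 higher in LSK, 2 lower), 4 of 4 pentose phosphate genes (all higher in LSK), 4 of 12 TCA genes (3 higher, 1 lower), 3 of 5 transport and lactate genes (2 higher, 1 lower) and 0 of 5 pyruvate entry genes. The pyruvate entry genes had differences from -0.67 (Pcx, 95% interval -1.32 to -0.023) to 0.35 (Dld, 95% interval -0.017 to 0.71), so differences of moderate size are not excluded by these intervals. With both tables shifted to a median of 0, the difference of Dld was called (adjusted p = 0.0403).

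Pfkp had the smallest adjusted p of these differences, at 2.13 (SE 0.16, adjusted p = 7.75e-38), followed by Taldo1 at 1.98 (SE 0.17, adjusted p = 9.96e-30). Gpi1 differed by 1.37 (SE 0.14, adjusted p = 8.32e-20). Ldhb had the largest difference in size, -3.22 (SE 0.38, adjusted p = 8.07e-16), with the LSK change below the LinNeg one. Hk3 and Hk2 differed by 1.95 (SE 0.24, adjusted p = 2.58e-14) and 1.85 (SE 0.24, adjusted p = 2.74e-13). Pgd differed by 1.29 (SE 0.16, adjusted p = 3.87e-14) and Pgam1 by 1.33 (SE 0.18, adjusted p = 1.09e-11). G6pdx differed by 1.17 (SE 0.17, adjusted p = 1.56e-10), and Pkm, lower in both, differed by 0.96 (SE 0.14, adjusted p = 4.33e-10). These 10 had the smallest adjusted p among the 39 genes.

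Of the 39 genes, 13 were called higher in both populations and 3 lower in both, against 14.1% and 12.2% of the 15735 genes. The 3 lower in both were Pkm, Slc2a1 and Slc2a3. A further 6, Gpi1, Pfkp, Pgk1, Pgam1, Pgd and Taldo1, were called higher in LSK and lower in LinNeg, against 3.43% of all genes, and Ldhb showed the opposite pattern, against 2.72% of all genes. With a change of at least 1.5-fold also required in both tables, 2 of the 6 (Pfkp and Taldo1) and Ldhb were left in opposite directions, 8 genes were higher in both and 0 lower in both. Over the 39 genes the log2 fold changes of the 2 tables had a Spearman correlation of 0.41, and over all genes tested in both 0.34, given as a description because genes are not independent.

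**Figure D2:**
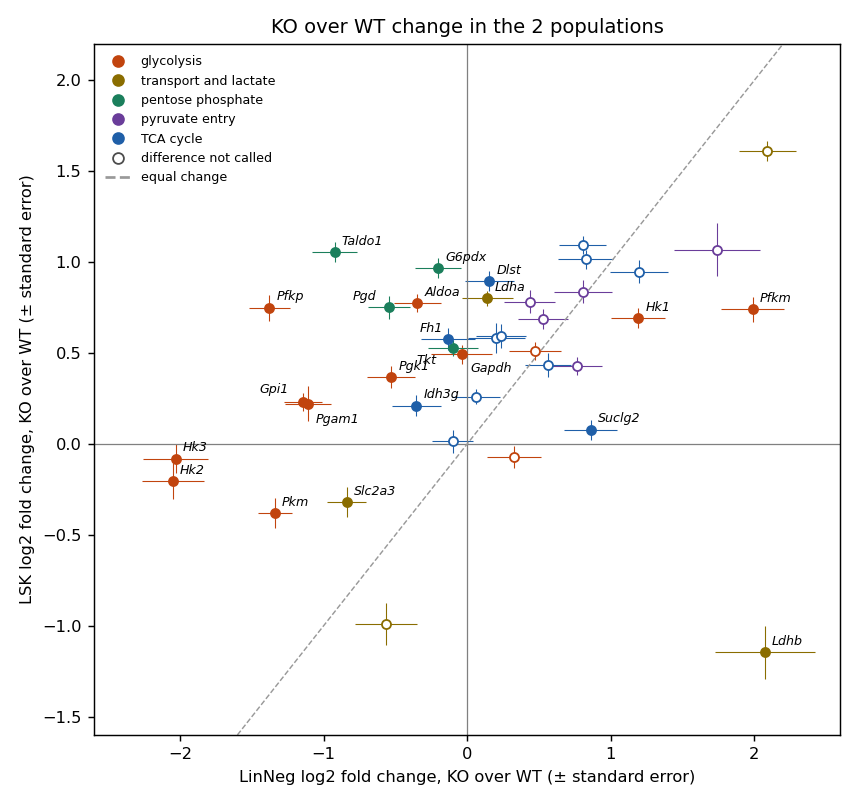
LSK log2 fold change against LinNeg log2 fold change, KO over WT, for the 39 measured genes, with standard errors from the authors' deposited tables; filled, named points differ between the populations at an adjusted p under 0.05 and the dashed line marks equal change. Taldo1, Pfkp, Pgd, Gpi1, Pgam1 and Pgk1 lie at upper left, higher in LSK and lower in LinNeg, and Ldhb lies alone at lower right.

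Isozyme make-up was set out as each isozyme's share of its family's summed level per kilobase of exon (GENCODE M21 exons), computed from the derived means, with no error available. In LSK, Hk1 made up 54.5% of the hexokinase level with the KO label and 40.7% with the WT label. In LinNeg, Hk1 made up 62.0% with the KO label and 14.8% with the WT label, and Hk3 25.5% with the KO label and 57.0% with the WT label. Pfkm made up 59.8% of the phosphofructokinase level in LSK libraries labelled KO and 48.1% in those labelled WT. In LinNeg Pfkm made up 66.8% in libraries labelled KO and 26.7% in those labelled WT, and Pfkp 10.9% with the KO label and 45.0% with the WT label.

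These shares depend on the length used. On coding length, Pfkm made up 37.8% with the KO label and 28.4% with the WT label in LSK, where Pfkl was then the larger, at 43.7% with the KO label and 57.7% with the WT label. In LinNeg, coding length put Pfkm at 42.8% with the KO label and 10.4% with the WT label, and Pfkp at 26.6% with the KO label and 66.4% with the WT label. Hk1 then made up 73.1% with the KO label and 22.4% with the WT label in LinNeg, and Hk3 15.0% with the KO label and 42.9% with the WT label. The Pfkm and Hk1 shares were larger with the KO label on either length.

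Pyruvate kinase has a second gene, Pklr, which encodes the red cell and liver forms and is named here because the Pkm result turns on it. Pklr had 7383 in LSK libraries labelled KO and 927 in those labelled WT, at 2.99 (SE 0.37, adjusted p = 3.08e-15) in the authors' deposited table, and 8938 with the KO label and 966 with the WT label in LinNeg, at 3.21 (SE 0.23, adjusted p = 2.50e-43). It made up 38.9% of the pyruvate kinase level with the KO label and 5.8% with the WT label in LSK, and 63.2% with the KO label and 6.83% with the WT label in LinNeg. On coding length its share was 29.6% with the KO label and 3.9% with the WT label in LSK, and 53.1% with the KO label and 4.61% with the WT label in LinNeg. The summed LSK levels had log2 ratios, KO over WT, of 0.27 for hexokinase, 0.42 for phosphofructokinase and 0.25 for pyruvate kinase per kilobase of exon, and of 0.38, 0.33 and 0.069 for the same families per kilobase of coding sequence. The summed LinNeg level of Pkm and Pklr had a log2 ratio of 0.00065, KO over WT, per kilobase of exon, and -0.32 per kilobase of coding sequence. For phosphofructokinase in LinNeg that ratio was 0.67 per kilobase of exon and -0.061 per kilobase of coding sequence, so no direction is given for that family in LinNeg. The hexokinase sum in LinNeg was lower with the KO label on both lengths, at log2 ratios of -0.87 and -0.51.

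**Figure D3:**
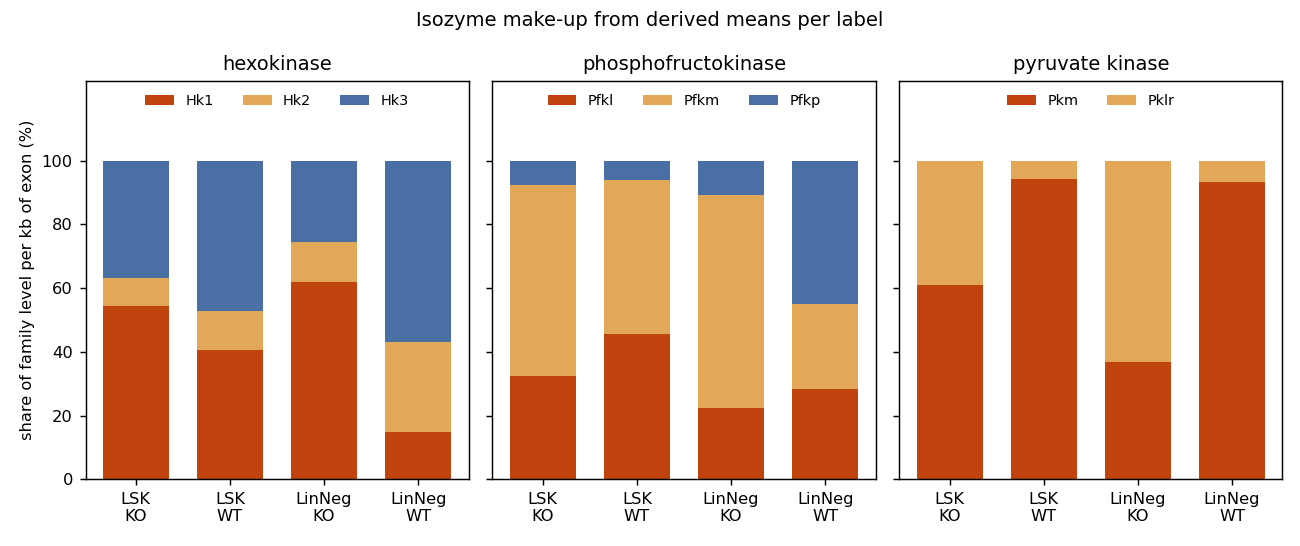
Share of each isozyme in its family's summed level per kilobase of exon (percent), from derived means, for hexokinase, phosphofructokinase and pyruvate kinase in LSK and LinNeg libraries labelled KO and WT. Hk1, Pfkm and Pklr take larger shares with the KO label in both populations, by a narrower margin in LSK than in LinNeg.

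The order of levels within a label is given per kilobase of exon for the 38 genes with an exon length, which leaves out Aldoa. Gapdh was highest in all 4 groups, at 7845 in LSK libraries labelled KO and 5571 in those labelled WT, and at 5398 with the KO label and 5546 with the WT label in LinNeg. Pcx was lowest of the 38 genes with an exon length in all 4 groups. Among these 38, Taldo1 and Ldha were the next highest after Gapdh in LinNeg. This order depends on the length used, and Taldo1 does not keep its place on coding length. Hk3 stood at rank 24 in LinNeg libraries labelled KO and rank 6 in those labelled WT, and Slc16a1 at rank 14 with the KO label and rank 31 with the WT label.

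Other genes of the same pathways were taken from 7 lists of 99 genes. Of those tested, 44 of 93 were called higher and 25 lower in LSK, and 34 of 94 were called higher and 19 lower in LinNeg. The shares over all genes tested were 32.4% higher and 29.2% lower in LSK, and 22.1% higher and 19.3% lower in LinNeg. They stand beside the counts of every list below, and no list was tested against them. Among 12 further glycolytic isozymes, 5 were called higher and 2 lower in LSK, and 6 higher and 0 lower in LinNeg. Ldhd, which oxidises D-lactate, was at -1.40 (SE 0.30, adjusted p = 1.11e-05) in LSK and 4.27 (SE 0.52, adjusted p = 3.62e-15) in LinNeg in the authors' deposited tables. Galm, which interconverts sugar anomers, was at -1.23 (SE 0.16, adjusted p = 1.76e-13) in LSK and 1.83 (SE 0.42, adjusted p = 7.73e-05) in LinNeg. Adpgk, an ADP-dependent glucokinase, was called higher in both, at 0.51 in LSK and 0.80 in LinNeg.

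Regulators of glycolysis were called in both directions, as were all genes tested. Of 18 tested, 5 were called higher and 8 lower in LSK, and 5 higher and 7 lower in LinNeg. Pfkfb3, which makes the activator of phosphofructokinase, was at -0.26 (SE 0.095, adjusted p = 0.0118) in LSK, and had 1089 in LinNeg libraries labelled KO and 3048 in those labelled WT, at -1.48 (SE 0.14, adjusted p = 4.18e-26) in the authors' deposited table. The oxygen sensor Egln3, a hypoxia-inducible gene, was at -0.47 (SE 0.12, adjusted p = 0.000141) in LSK and -1.84 (SE 0.30, adjusted p = 1.22e-08) in LinNeg in the authors' deposited tables. Hif3a, a hypoxia-inducible factor subunit, was higher, at 2.43 (SE 0.15, adjusted p = 8.10e-60) in LSK and 3.08 (SE 0.28, adjusted p = 3.88e-27) in LinNeg. The subunit Hif1a was called lower in LinNeg, at -0.82 (SE 0.17, adjusted p = 6.18e-06) in the authors' deposited table. Epas1, another such subunit, was not called there, at -0.49 (SE 0.35). Hif1a and Epas1 were named after their values were seen. Of the phosphoglucomutase family, Pgm1 was called higher in both, at 0.74 in LSK and 0.56 in LinNeg, and Pgm2l1 was called lower in LSK, at -0.75.

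Of 13 further sugar and lactate transporters, 6 were called higher and 3 lower in LSK, and 5 higher and 3 lower in LinNeg. Slc16a3 (MCT4), the lactate exporter of glycolytic cells, had 689.7 in LSK libraries labelled KO and 242 in those labelled WT, at 1.51 (SE 0.14, adjusted p = 4.35e-28) in the authors' deposited table. Within LinNeg it had 619 with the KO label and 1169 with the WT label, at -0.92 (SE 0.23, adjusted p = 0.000256). Bsg, the chaperone of both lactate transporters, was called higher in both, at 0.95 in LSK and 0.51 in LinNeg, as were Slc2a8 (1.56 in LSK and 1.05 in LinNeg) and Slc16a6 (1.02 in LSK and 0.55 in LinNeg). Slc2a9, a urate transporter, was called lower in both, at -2.11 in LSK and -1.15 in LinNeg, and Slc2a6 was called lower in LinNeg, at -1.55.

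In the rest of the pentose phosphate pathway, 4 of 8 tested genes were called higher and 1 lower in LSK, and 2 higher and 2 lower in LinNeg. Pgls, the lactonase between G6pdx and Pgd, was higher in LSK and lower in LinNeg like Pgd, at 0.37 (SE 0.062, adjusted p = 4.93e-09) in LSK and -0.85 (SE 0.18, adjusted p = 1.16e-05) in LinNeg in the authors' deposited tables. The ribose isomerase Rpia and epimerase Rpe were called higher in LSK, at 1.30 and 0.65, and were not called in LinNeg, at 0.34 and 0.092. Prps1, which activates ribose 5-phosphate for nucleotide synthesis, was called higher in both, at 0.82 in LSK and 1.04 in LinNeg. Tktl1 was called higher in LinNeg at a low level, 1.57 (SE 0.65).

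Around pyruvate dehydrogenase, 4 of 13 regulators were called higher and 6 lower in LSK, and 4 higher and 2 lower in LinNeg. Pdk1, a kinase that inactivates the complex, had 3656 in LSK libraries labelled KO and 4699 in those labelled WT, at -0.36 (SE 0.069, adjusted p = 4.55e-07) in the authors' deposited table, and 3102 with the KO label and 1228 with the WT label in LinNeg, at 1.34 (SE 0.17, adjusted p = 1.09e-13). The mitochondrial pyruvate carrier subunit Mpc2 went the other way, at 0.62 (SE 0.13, adjusted p = 3.33e-06) in LSK and -1.13 (SE 0.18, adjusted p = 8.61e-09) in LinNeg, and Mpc1 was called higher in LSK, at 1.02. Pdhx, a structural subunit of the complex, and Lias, which makes its lipoyl cofactor, were called higher in both, at 0.67 in LSK and 0.88 in LinNeg for Pdhx, and at 0.95 in LSK and 1.06 in LinNeg for Lias.

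Among further TCA-linked genes, 16 of 21 were called higher and 2 lower in LSK, and 8 of 22 higher and 3 lower in LinNeg. The NADP-dependent isocitrate dehydrogenases departed from Idh3a. Idh1, the cytosolic enzyme, was at 0.58 (SE 0.12, adjusted p = 1.91e-06) in LSK, and had 925 in LinNeg libraries labelled KO and 2873 in those labelled WT, at -1.63 (SE 0.26, adjusted p = 2.35e-09) in the authors' deposited table. Idh2, the mitochondrial enzyme, was lower in both, at -0.38 (SE 0.067, adjusted p = 3.88e-08) in LSK and -1.26 (SE 0.17, adjusted p = 4.30e-12) in LinNeg. Got1 and Got2 (aspartate aminotransferases) were called higher in both, at 0.92 and 0.73 in LSK and 1.32 and 0.88 in LinNeg. Me2, a mitochondrial malic enzyme, was called higher in LSK, at 0.92. Of 8 genes of glutamine supply, 4 were called higher and 3 lower in LSK, and 4 higher and 2 lower in LinNeg. Gls2, a glutaminase, was at 3.49 (SE 0.26, adjusted p = 3.55e-40) in LSK and 2.92 (SE 0.57, adjusted p = 1.91e-06) in LinNeg in the authors' deposited tables. Glul, glutamine synthetase, was called lower in LSK (-0.89) and higher in LinNeg (0.83), Glud1, glutamate dehydrogenase, was lower in both (-0.34 in LSK and -1.05 in LinNeg), and the amino acid transporter Slc7a5 was higher in both (1.21 in LSK and 0.70 in LinNeg).

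Markers of blood lineages moved with the label in both populations. Over all genes tested, the shares called were 32.4% higher and 29.2% lower in LSK, and 22.1% higher and 19.3% lower in LinNeg. In LSK, 16 of 16 erythroid markers were called higher, with sums of 167491 with the KO label and 32409.5 with the WT label, and the globin gene Hbb-bt was listed at 0. There 14 of 16 neutrophil granule markers were called higher, with sums of 175200 with the KO label and 63016 with the WT label. Stem cell markers were called lower in 13 of 15 and higher in 0, with sums of 34975 with the KO label and 111569 with the WT label. Monocyte and dendritic markers were called higher in 4 and lower in 5 of 15, with sums of 12613 with the KO label and 24009 with the WT label, and mature lineage antigens higher in 1 and lower in 2 of 11.

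In LinNeg, 15 of 16 tested erythroid markers were called higher, with summed derived means of 153890 with the KO label and 28698 with the WT label, and Hba-a1 and Hbb-bt were listed at 0. Neutrophil granule markers were called lower in 9 of 15 and higher in 0, with summed means of 6127 with the KO label and 88561 with the WT label. Monocyte and dendritic markers were called lower in 14 of 15, with sums of 10089 with the KO label and 97346 with the WT label. Of 15 stem cell markers, 3 were called higher and 6 lower in LinNeg, and of 9 tested mature lineage antigens 2 were called higher and 1 lower. The part of these markers in the results on carbon metabolism genes was not tested.

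**Figure D4:**
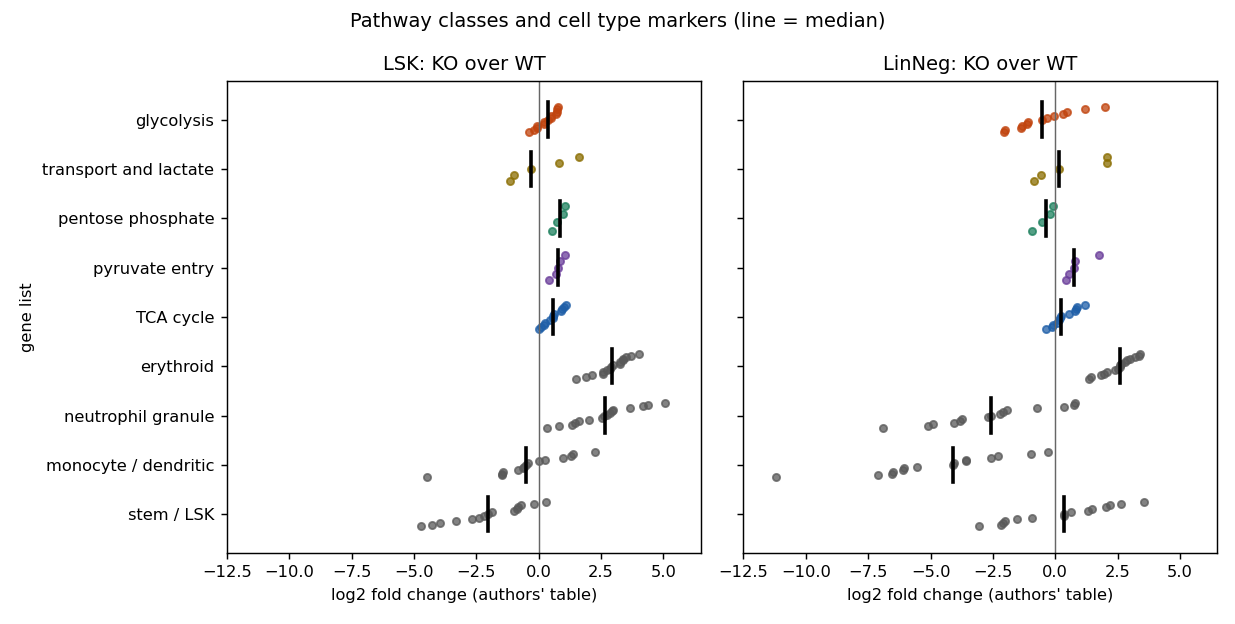
Log2 fold change, KO over WT, of each tested gene of the 5 carbon metabolism classes (coloured) and of 4 blood lineage marker lists (grey) in LSK (left) and LinNeg (right), with the list median as a black line. Glycolytic genes, pentose phosphate genes and neutrophil granule markers have medians above 0 in LSK and below 0 in LinNeg. Pyruvate entry genes, TCA cycle genes and erythroid markers have medians above 0 in both. Transport and lactate genes and stem cell markers have medians below 0 in LSK and above 0 in LinNeg. Monocyte and dendritic markers have medians below 0 in both.

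Of the 39 genes, Pgk1, G6pdx, Pdha1 and Idh3g lie on the X chromosome. In LSK, where sex and label cannot be told apart, all 4 were called higher with a median of 0.40, and the 35 genes on other chromosomes were called higher in 26 with a median of 0.58. In LinNeg, where sex and label may also be partly mixed, 1 of the 4 was called higher and 1 lower. Exons of 5 of the 39 genes overlap other annotated genes over more than 10% of their length: Pdha1, Pkm, G6pdx, Gpi1 and Pfkm. Whether the counting used strand is not stated, so reads of such neighbours cannot be told apart.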

How the data were processed

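RNA of 12 libraries (LSK and LinNeg, each with KO and WT labels, 3 libraries a group) entered 2 tables of the authors' own comparisons, and no value per library was used. Per the submitters' processing notes, HISAT2, SAMtools 1.10, StringTie and DESeq2 were used with build mm10; how reads were counted, and on which annotation, is not given in the sources used here. Per the file headers, each gene has a mean of normalised counts over the libraries of its table (a linear signal), a log2 fold change and the standard error of it (also log2), a Wald statistic (a score), and a p-value with its adjusted p-value, all as deposited by the authors. Normalised separately, the tables are not compared in level.

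Of 24542 rows per table, 5 that name no gene and 4 with repeated symbols were left out. Of the summed means, 26.4% in LSK and 38.0% in LinNeg belonged to reads with no feature, and 0.752% in LSK and 0.689% in LinNeg to ambiguous reads. Adjusted p-values stood for 16482 genes in LSK and 17108 in LinNeg.

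The product of statistic and standard error was used as the log2 fold change, which matched the deposited values within rounding. Means per label were derived from the deposited mean and fold change, taking 3 libraries on each side. The test of the difference between the populations was checked on simulated data with normal errors drawn from the deposited standard errors. That check covers the computation and cannot show whether those standard errors are right. The planned tests on counts could not be run, so calls rest on an adjusted p below 0.05 in the authors' own DESeq2 run. Intervals are 95% normal intervals from the deposited standard errors. Gene positions, exon lengths and near copies (blastn 2.17.0, at least 95% identity over 500 bases) come from GENCODE M21, in which Aldoa had no unique entry. Promoters come from RefSeq (GRCm38.p6). Software was Python 3.11.15 with matplotlib 3.10.9, scipy 1.17.1, numpy 2.4.6 and pandas 2.3.3.

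Members, lists and markers were chosen with earlier results of these data known. Every member could be named, with full statistics for up to 4 of each class with the smallest adjusted p, for those called in opposite directions and for the 10 smallest adjusted p of the difference; other lists gave up to 3 genes per list and table with the smallest adjusted p, and any isozyme a result turns on. Alternatives were other thresholds, recentring, other filters, means for medians and other lengths for isozyme shares.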

Additional observations from a re-analysis of the deposited data

Results flagged for a closer look

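Each value in the next sentences is the LSK minus the LinNeg log2 fold change of KO over WT for a gene whose difference had an adjusted p under 0.05 in the two-sided normal test over 15735 genes. A positive value means that the KO effect was higher in LSK. Population, the BMT tag of the LSK libraries and the mix of sex with the label cannot be told apart in these values. Among glycolytic enzymes the differences were 2.13 for Pfkp, 1.95 for Hk3, 1.85 for Hk2, 1.37 for Gpi1, 1.33 for Pgam1, 1.12 for Aldoa, 0.96 for Pkm, 0.90 for Pgk1, 0.53 for Gapdh, -0.50 for Hk1 and -1.25 for Pfkm. For the first 9 the log2 fold change was higher in LSK than in LinNeg, although Pkm was called lower and Hk2 and Hk3 were not called in LSK. Hk1 and Pfkm were called higher in both populations, with the smaller effect in LSK. The differences of the pentose phosphate enzymes were 1.98 for Taldo1, 1.29 for Pgd, 1.17 for G6pdx and 0.63 for Tkt. In transport and lactate metabolism they were 0.66 for Ldha, 0.52 for Slc2a3 and -3.22 for Ldhb. In the TCA cycle they were 0.74 for Dlst, 0.71 for Fh1, 0.56 for Idh3g and -0.78 for Suclg2.

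In the other lists, the glycolytic isozymes and regulators that differed were Ldhd at -5.67, Galm at -3.06, Egln3 at 1.37, Pfkfb3 at 1.23 and Pgm2l1 at -0.52. Transporters that differed were Slc16a3 at 2.43, Slc2a6 at 1.65, Slc2a9 at -0.95, Slc16a6 at 0.48 and Bsg at 0.44. The pentose phosphate genes Pgls, Rpia and Rpe differed by 1.22, 0.95 and 0.56. Around pyruvate dehydrogenase, Mpc2 differed by 1.75, Mpc1 by 1.38 and Pdk1 by -1.70. Idh1 differed by 2.21, Me2 by 0.90, Idh2 by 0.88, Glud1 by 0.70 and Glul by -1.71. Idh1, like Taldo1 and Pfkp, was higher in LSK and lower in LinNeg, while Ldhd, Galm, Glul and Pdk1 were lower in LSK and higher in LinNeg.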

How the results depend on the processing

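Asking for a change of at least 1.5-fold left 20 of the 39 genes called in LSK (18 higher, 2 lower) in place of 34 (30 higher, 4 lower), and 19 in LinNeg (11 higher, 8 lower) in place of 26. Genes called higher in LSK and lower in LinNeg then numbered 2 in place of 6, those higher in both 8 in place of 13, and those lower in both 0 in place of 3. Of all genes tested in LSK, 6175 were then called in place of 10148. Subtracting the median of all genes turned the LinNeg median of the 39 genes, and of the transport and lactate class, to -0.016, and reversed the uncalled values of Ldha (-0.016), Ogdh (-0.093) and Dlst (-0.0026) in LinNeg and of Mdh1 in LSK (-0.028, or -0.018 with the median of genes with a mean of at least 100). That shift made Tpi1, Pdhb and Dld lose their call in LinNeg and Pgam1 in LSK, and Hk2 was then called lower in LSK (adjusted p = 0.0252). Subtracting the median of genes with a mean of at least 100 changed no LinNeg sign or call among the 39 genes. In LSK it moved Pgam1 and Hk2 in the same way as the median of all genes did. With the mean in place of the median, the transport and lactate class stood at -0.0082 in LSK and 0.58 in LinNeg, and the 39 genes at 0.46 in LSK. The difference between the populations was called for 23 genes with both tables recentred, without Hk1 and with Dld and Suclg1, and the share of all called differences above 0 was then 63.1% in place of 54.6%. An adjusted p under 0.01 removed Tpi1, Slc2a1 and Dld in LinNeg, Pgam1 in LSK, and Hk1 and Gapdh from the differences. Other filters on the mean changed no call among the 39 genes.

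As alternatives chosen after seeing the data, the isozyme shares were recomputed on coding length and with no division by length. The LinNeg share of Pfkl then turned from lower to higher with the KO label, by 7.22 and 7.35 percentage points, and its cause was not tested. No paired analysis was possible because the tables hold no value per library; for the same reason, leaving out replicates and another normalization were not run. Depth is unknown, and the larger standard errors in LinNeg limit what could be called there.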

Other observations

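Transcripts of other organs that earlier results of these data had shown were also listed. The 10 such genes included seminal vesicle and neural genes. In LSK, Svs3b, Svs4 and Spinkl were listed at 0, so no seminal vesicle gene was tested there. The 7 genes tested in LSK were all called higher, with summed derived means of 2748 in libraries labelled KO and 14.7 in those labelled WT. In LinNeg 8 were called higher and 0 lower, with sums of 54774 in libraries labelled KO and 953 in those labelled WT. Most of the LinNeg sum came from Svs4, at 39339 with the KO label and 55.4 with the WT label (log2 SE 1.69). The part of these organ transcripts in the values of carbon metabolism genes was not tested.

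Bpgm, which makes the bisphosphoglycerate that regulates haemoglobin in red cells, was not called in LSK, at 0.18 (SE 0.17). Within LinNeg it had 1714 normalised counts in libraries labelled KO and 445 in those labelled WT, at 1.94 (SE 0.36, adjusted p = 3.80e-07) in the authors' deposited table. Bpgm was chosen after its values were seen. Pdk1 made up 30.7% of the summed level per kilobase of exon of the pyruvate dehydrogenase kinases in LSK libraries labelled KO and 35.5% in those labelled WT, and 33.1% with the KO label and 16.3% with the WT label in LinNeg. On coding length the Pdk1 share was 55.5% with the KO label and 60.5% with the WT label in LSK, and 57.4% with the KO label and 34.7% with the WT label in LinNeg. Slc16a1 made up 94.9% of the summed level of Slc16a1 and Slc16a3 in LSK libraries labelled KO and 94.6% in those labelled WT, and 92.7% with the KO label and 61.1% with the WT label in LinNeg.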
